A study of Bubalus bubalis with 8 samples.

Results

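The comparison described here set buffalo mammary epithelial cells (MECs) harvested 24 h after a 1 h heat exposure against unstressed cells (CTR), with 1 array for each condition. Of 43653 probes on the array, 11226 entered it. They were well above background on at least 1 of both arrays and lay outside a rectangle of spots that was dark on the CTR array. Of these, 9125 were well above background on both arrays, 147 at 24 h alone and 1954 in CTR alone. The probes that passed carried 7598 gene names, and those measured on both arrays carried 6345 of the 24025 names on the array.

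The study hybridised RNA from buffalo (Bubalus bubalis) MECs to a bovine 1-colour oligonucleotide array, 8 arrays in all. The cells were a primary culture from 1 adult animal, used at passage 10 on collagen-treated plates. CTR cells stayed at 37 °C, while treated cells spent 1 h at 42 °C and then recovered at 37 °C with 5% CO2 until they were trypsinised 24 h later. CTR and the 8 h, 12 h and 24 h arrays shared 1 slide. Control plates were harvested at the time points of the heated ones per the study's methods, but which of these harvests the CTR array holds is not given in the sources used here. Heat can therefore not be told apart from a difference in time in culture, nor from the difference between single cultures or arrays. In such RNA, fewer cells of a type and less RNA per cell cannot be told apart.

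Heat unfolds proteins and releases heat shock factor 1, which switches on genes for chaperones of the HSP70, HSP90, HSP40 and small heat shock families. The endoplasmic reticulum (ER) has its own chaperones, among them HSPA5 and HSP90B1, which fold secreted proteins and are induced by the unfolded protein response. Mammary epithelial cells are secretory cells in vivo, and heat stress is known to lower milk yield in dairy animals.

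The labelled cell type was checked against its markers. Outside the dark rectangle, 7 of 8 epithelial markers on the array were well above background in both conditions, among them KRT19, KRT5, KRT7, KRT14, KRT8, EPCAM and CDH1, with changes from -0.74 to 0.43. None changed 2-fold, although 2 of the 4 probes of KRT8 were 2.04- and 2.08-fold lower. The exception was KRT18, which was not well above background on either array. Of 10 fibroblast markers, 4 were detected in CTR and 3 at 24 h, and those on both arrays (VIM, COL1A1 and COL3A1) changed by -0.05 to 0.08. VIM was detected on all 5 of its probes, COL1A1 on 1 of 5 and COL3A1 on 1 of 9 outside the rectangle. A wider list of fibroblast and stromal genes had 9 members on both arrays, 7 of them below CTR with a median change of -0.44, among them COL5A2 at -0.72 and FN1 at -0.64. None of 6 endothelial and none of 4 adipocyte markers was detected, and 2 of 8 leukocyte markers were (PTPRC and CD79A, each on 1 probe). Wider lists held the endothelial gene ENG, at 3.90 in CTR and 3.55 at 24 h, and 8 leukocyte genes on both arrays, 7 of them below CTR with a median change of -0.38. Of all 6345 genes measured on both arrays 2387 stood above CTR, and the median change was -0.13. The part of these cell types in the results was not tested. Among milk protein genes only CSN2, beta-casein, was measured, at a change of 0.07.

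Levels are log2 intensities above the 75th percentile of each array, and a change is the 24 h level minus the CTR level. That percentile lay below the detection limit on the 24 h array (0.22) and above it in CTR (-0.59). The zero of every change rests on these percentiles. A probe not well above background has only a bound there. With 1 array a condition there is no test, and a gene or probe is called higher or lower by its fold alone. The only errors at hand are technical. Repeated spots of 1 probe gave an error of 0.37 (log2) for a change, from 15 replicated probes on each array, and different probes of 1 gene scattered by 0.35 (SD).

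The probes below read transcripts named in the account of chaperones, replication and interferon genes. RANBP1 is in none of these lists and stands among the largest falls. Each probe is the designed bovine 60-mer with an open reading frame on its sense strand, given with its position in the bovine build Btau_3.1. Where the ends lie farther apart than the probe is long, the files place it across a gap in the genome.
HSPA8 (chr15:32351101-32351160, minus strand): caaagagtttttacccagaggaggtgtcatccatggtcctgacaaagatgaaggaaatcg
HSPA1A (chr23:27311987-27312046, minus strand): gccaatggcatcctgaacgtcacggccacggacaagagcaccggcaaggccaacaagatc
HSPA5 (chr11:99543579-99543638, minus strand): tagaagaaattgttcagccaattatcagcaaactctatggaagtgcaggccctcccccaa
CRYAB (chr15:20479069-20480618, minus strand): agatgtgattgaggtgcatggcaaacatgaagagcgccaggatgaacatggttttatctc
MCM4 (chr14:19221146-19221862, plus strand): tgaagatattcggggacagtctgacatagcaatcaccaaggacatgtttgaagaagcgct
RANBP1 (chr17:76466994-76467351, plus strand): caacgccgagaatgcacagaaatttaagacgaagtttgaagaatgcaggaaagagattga
ISG15 (chr16:48718914-48718973, minus strand): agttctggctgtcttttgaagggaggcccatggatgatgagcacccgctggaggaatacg

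At 24 h more probes were lower than higher than in CTR. At 3-fold, 32 probes were higher (0.285%) and 371 were lower (3.3%). At 2-fold, 126 were higher (1.12%) and 934 lower (8.32%). Many of these calls rested on probes that the 24 h array did not detect. Its detection limit lay at 0.22, against -0.59 in CTR. Among probes measured on both arrays only 3 were 3-fold higher (0.0329%) and 43 were 3-fold lower (0.471%), and their median change was -0.14 with an SD of 0.45. Of genes that passed, 92 were 2-fold higher (1.21%) and 591 lower (7.78%). Of genes measured on both arrays, 38 were 2-fold higher (0.599%) and 193 lower (3.04%), and it is these last shares that the gene groups below are read against. The median gene on both arrays changed by -0.13. By their levels, 2387 of these 6345 genes stood above CTR at 24 h. Of the 2-fold calls 11.9% were higher, a share that was 1.73% when the array median replaced the 75th percentile, which shifted all changes by -0.42. The percentile over probes bright on both arrays shifted them by 0.12. It was 31.9% when changes were centred within bins of level and 44.5% when the dark rectangle was kept in.

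Heat shock and co-chaperone genes mostly stood below their unstressed level at 24 h. The list also holds the mitochondrial chaperones HSPD1, HSPE1 and HSPA9 and the ER chaperone SERPINH1. Of 38 genes on the array 31 passed and 27 were measured on both arrays. Of these 27, 24 were lower than in CTR and 3 higher, 2 of them were 2-fold lower, and the list's median change was -0.37. On the 8 h array of the same slide 22 of the 27 stood above CTR, with a median of 0.65 above it, and on the 12 h array 15 did. The 24 h array held the lowest level of the 4 arrays in 21 of the 27, against 23.8% of all genes measured.

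HSPA8, the constitutive HSP70 of the cytosol, was 4.08-fold lower at 24 h, the median of 4 probes with changes from -3.34 to -1.69. On the probe printed above its level was 2.52 in CTR, 3.65 at 8 h, 1.87 at 12 h and 0.44 at 24 h. All 4 probes were highest at 8 h and lowest at 24 h. HSPA1A, the heat-inducible HSP70, had a CTR level of 2.67 on the printed probe, against 7.71 (saturated) at 8 h, 5.06 at 12 h and 1.84 at 24 h. Its second probe on both arrays read 2.46, 7.02, 5.41 and 1.03 in the same order, and the median of both was 2.19-fold lower at 24 h than in CTR. Both probes stood far above CTR at 8 h and below it at 24 h, and a further probe, detected in CTR alone, was at least 1.49-fold lower. Members without a 2-fold change included DNAJA1, an HSP40 co-chaperone, at -0.86, HSPD1, the mitochondrial HSP60, at -0.83, HSP90AB1 at -0.73 and HSP90AA1 at -0.37. The 6 probes of HSP90AA1 ranged from -2.27 to -0.06. HSPH1, a nucleotide exchange factor for HSP70, had a CTR level of 1.54, rose to 4.42 at 8 h and stood at 1.51 after 24 h.

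CRYAB, the small heat shock protein alpha-B crystallin, was higher at 24 h. It was not well above background in CTR on either probe, read 5.66 at 8 h and 5.59 at 12 h on its brighter probe and stayed at 4.00 at 24 h. That was at least 24.0-fold higher than in CTR, and the printed probe gave at least 10.4-fold. Both probes at 24 h lay below their 8 h and 12 h levels and far above CTR. HSPB1, the small chaperone HSP27, read 6.59 in CTR, 7.74 at 8 h, 7.24 at 12 h and 7.52 at 24 h on its 1 usable probe, which was saturated on the 3 heated arrays, so it was at least 1.91-fold higher. HSPB6, another small heat shock protein, changed by -0.0012. HSPB8, which acts with BAG3 in chaperone-assisted autophagy, read 4.63 at 8 h and 2.05 at 12 h on its brightest probe, but neither CTR nor 24 h cells gave a signal well above background. DNAJB2, an HSP40 protein, was detected at 24 h alone on 1 probe, at least 2.07-fold higher, and its brightest probe lay in the dark rectangle and was not used.

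ER chaperones and folding enzymes had the lowest median change of the chaperone lists, which are those of heat shock, ER and TRiC/CCT genes. Of 24 genes 22 passed and 21 were measured on both arrays. Of these 21, 20 were lower, 6 were 2-fold lower, none was 2-fold higher, and the median change was -0.71. The 6 were HSP90B1 (-1.48), the ER member of the HSP90 family, HSPA5 (-1.45), the ER HSP70 also called BiP, MANF (-1.45), a secreted ER stress protein, FKBP2 (-1.09), a prolyl isomerase, CALR (-1.06), the lectin chaperone calreticulin, and PDIA3 (-1.06), a disulfide isomerase. HSPA5 read 5.36 in CTR, 7.25 at 8 h, 5.80 at 12 h and 3.95 at 24 h on its brightest probe. All 4 of its passing probes were highest at 8 h and lowest at 24 h. Neither P4HB (-0.15), the first disulfide isomerase described, nor TXNDC5 (0.05) came near 2-fold. At 8 h 13 of the 21 genes stood above CTR, at 12 h 6 did and at 24 h 1 did. Of all 6345 genes 2402, 1793 and 2387 did in the same order. Of the regulators of the unfolded protein response and ER-associated degradation, 13 were measured on both arrays, with a median change of -0.03. ATF4, a transcription factor of the stress response, was the 1 among them that was 2-fold lower (-1.12).

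Genes of DNA replication were lower throughout. Of 39 on the array 27 passed, 5 of them in CTR alone, and 22 were measured on both arrays. All 22 were below CTR, 6 of them 2-fold lower, with a median change of -0.81. PCNA, the sliding clamp of DNA polymerases, read 3.17 in CTR, 2.58 at 8 h, 1.82 at 12 h and 1.65 at 24 h, a 2.89-fold lower level at 24 h. This rests on 1 of its 3 probes, and without the filter on dim probes PCNA changed by -0.55. RPA2, a subunit of the single-strand DNA binding protein, changed by -1.34, CDT1, which licenses replication origins, by -1.32, and MCM4, a subunit of the replicative helicase, by -1.19 as the median of 3 probes. The MCM4 probe printed above changed by -0.85, which is under 2-fold. RFC5, a subunit of the clamp loader, changed by -1.08 and FEN1, a flap endonuclease, by -1.02. RRM2, the small subunit of ribonucleotide reductase, was detected in CTR alone on all 3 passing probes, at least 3.19-fold lower on the brightest. The median distance from CTR widened on the slide from -0.48 at 8 h through -0.71 at 12 h to -0.81, and 24 h was the lowest of the 4 arrays in 14 of the 22 genes. Over all genes the distance was -0.14 at 8 h and -0.26 at 12 h, and 24 h was the lowest in 23.8%.

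Genes of mitosis and the G2/M phase were lower as well, with their lowest median at 12 h. Of 49 on the array 30 passed, 6 of them in CTR alone. All 24 measured on both arrays were below CTR, 8 of them 2-fold lower, with a median change of -0.83. The largest falls were those of HMGB2 (-1.44), a chromatin protein of dividing cells, NUF2 (-1.43), a kinetochore protein, CKS2 (-1.38), a subunit of cyclin-dependent kinases, and CCNA2 (-1.26), cyclin A2. H2AFZ, CDCA3, NDC80 and STMN1 made up the 8. Their median distance from CTR went from -0.81 at 8 h to -1.18 at 12 h, then back to -0.83. Over all genes the distance was -0.14 at 8 h and -0.26 at 12 h. CCNA2 read 2.03 in CTR and 0.32 at 8 h, then -0.02 and 0.77 on the later arrays. PLK1, a mitotic kinase, read 4.17 in CTR and 2.96, 2.41 and 3.28 on the heated arrays in time order. The 24 h array was the lowest of the 4 in 7 of the 24 genes. Whether both groups differ in time course was not tested.

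Interferon response genes were the list with the highest median, 0.53. Interferons induce these genes, and their products act against viruses. Of 38 on the array 16 passed and 13 were measured on both arrays. Of these 13, 12 were above CTR and 3 were 2-fold higher. ISG15, a ubiquitin-like modifier, had levels of 3.87 in CTR, 3.59 at 8 h, 3.32 at 12 h and 5.19 at 24 h, 2.50-fold above CTR. This rests on 1 of its 2 probes. On the arrays outside this slide ISG15 read 6.74 at 2 h, above its 24 h level, 4.57 at 4 h and 4.56 at 16 h. PARP14, a mono-ADP-ribosyltransferase, changed by 1.17 and DDX58, the RNA sensor RIG-I, by 1.11, each on its 1 probe well above background. UBA7, the activating enzyme for ISG15, was detected at 24 h alone and was at least 2.61-fold higher. Below 2-fold, MX1, an antiviral GTPase, changed by 0.72 on 2 probes, OAS1Y, an oligoadenylate synthetase, by 0.63 and IRF7, a transcription factor of the response, by 0.53. IFI27 was the 1 member not above CTR, at -0.01. With the array median in place of the 75th percentile none of the 13 was 2-fold higher and ISG15 changed by 0.90. The 24 h array held the highest of the 4 levels in 11 of the 13 genes, against 22.8% of all genes measured.

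Immediate early genes, which growth factors and stress induce within minutes, divided. Of 19 measured on both arrays 12 were above CTR and 7 below, with a median change of 0.27. EGR1, a zinc finger factor, was 2.25-fold higher, and its 2 probes read 2.57 and 2.03 in CTR, 1.79 and 1.42 at 12 h and 3.68 and 3.26 at 24 h. BTG2, an antiproliferative p53 target, changed by 1.08 on 1 probe that lay beside the dark rectangle. FOS changed by 0.96, with its 2 probes at 0.63 and 1.29. ATF3 (0.82) and FOSL2 (0.67) had their highest levels at 8 h, whereas EGR1 and FOS had theirs at 24 h, all among the 4 arrays of the slide. On the 16 h array of the other slide EGR1 read 4.38, above its 24 h level of 3.47. CTGF, a target of YAP and TGF-beta, was the lowest member at -0.67. Of 13 p53 target genes on both arrays 8 were above CTR, with a median change of 0.33. These included MDM2 (0.89), the ubiquitin ligase of p53, XPC (0.79) and TP53INP1 (0.79), and BTG2 was the only 2-fold member. The median of the p53 list already stood 0.31 above CTR at 8 h and 0.39 at 12 h. The 24 h array held the highest of the 4 levels in 4 of the 13 p53 targets, against 22.8% of all genes measured.

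Keratins had a median of -0.14 over 9 genes and epithelial junction genes of 0.03 over 21, and neither held a gene past 2-fold. Proteasome subunits had a median of -0.18 with 22 of 29 below CTR and 1 of them 2-fold lower. Genes of oxidative phosphorylation had a median of -0.23 with 52 of 68 below CTR and 0 of them 2-fold lower. Ribosomal protein genes had a median of -0.42, with 72 of 76 below CTR and 3 of them 2-fold lower, namely RPL22L1, RPS12 and RPS24. All 8 subunits of the chaperonin TRiC/CCT were below CTR, with a median of -0.43, and 1 of them, CCT5 (-1.03), was 2-fold lower. Within 10 spots of the CCT5 probes the median change was -0.57. Of all 6345 genes on both arrays 2387 stood above CTR. Relative to all genes, the medians were -0.05 for proteasome, -0.10 for oxidative phosphorylation, -0.30 for ribosomal protein and -0.30 for TRiC/CCT genes. With quantile normalization the ribosomal distance was 0.01, while that of TRiC/CCT ran from -0.33 to -0.18 over all alternatives. The brightest of 4 level bins of probes had a median change of -0.21, against -0.02 in the dimmest. What level contributed to the ribosomal median was not tested. Acute phase genes had only 3 members on both arrays, and SAA3 (-1.15) and M-SAA3.2 (-1.35), serum amyloid A proteins of the mammary gland, were lower. Of the same list S100A12, a calcium-binding alarmin, and CFB, complement factor B, were detected at 24 h alone, at least 2.23- and 1.79-fold higher, each on 1 probe. ACTA2, smooth muscle actin and a marker of myoepithelial cells and myofibroblasts, was 2.47-fold lower. MMP9, a gelatinase, changed by -1.58 on 1 probe, while its other passing probe, dim at 24 h, was at least 1.20-fold lower. Of 32 interleukins, TNF family members and chemokines on the array 5 passed, none past 2-fold. On the probes that the study's tables give for the genes its results name, IL1A, IL1B, IL6, IL10, TNF and CXCL2 gave no signal well above background in either condition. HMOX1, heme oxygenase, read 2.98 in CTR, 4.65 at 8 h and 3.23 at 24 h. FBXO22 changed by -1.43, COL4A1 by -0.62, IGFBP5 by -0.07 and GPX4 by -0.15. The study's probes for BOLA, MRPL55, PFKFB3, PSMC2 and ARID5A lay in the dark rectangle and gave no value. Other probes of BOLA, an MHC class I gene, changed by -0.57 as the median of 5 on both arrays.

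Among all genes whose passing probes were bright on both arrays and changed to 1 side, the largest fall was that of SLC1A5, a glutamine transporter. It read 3.04 in CTR, 2.71 at 8 h, 1.87 at 12 h and 0.29 at 24 h, 6.74-fold lower at 24 h on its single probe. HSPA8 came next, and other large falls were those of SRSF2 (-1.86), a splicing factor, SEC14L6 (-1.79), RMI2 (-1.67), a subunit of the BLM complex, RANBP1 (-1.65 over 2 probes), a Ran cofactor in nuclear transport, RPL22L1 (-1.58), WIPI2 (-1.54), an autophagy protein, PCNA and FAM83D (-1.51). The largest rises were those of INSM1 (1.45), a zinc finger factor, ATG2A (1.33 over 2 probes), a lipid transfer protein of autophagy, ISG15, NCLN (1.28), PTPRK (1.26), a receptor phosphatase, C1QTNF5 (1.21), RENBP (1.18), PARP14, EGR1, RBM42 (1.17), ZYG11B (1.14) and RPUSD3 (1.13). Within 10 spots of WIPI2 the median change was -0.94, and around NCLN, RBM42 and ZYG11B it was 0.53, 0.44 and 0.41. After the local median was taken off, 6 of these named genes were under 2-fold, namely RANBP1 (-0.97), WIPI2 (-0.59), NCLN (0.75), RBM42 (0.73), ZYG11B (0.73) and RPUSD3 (0.88). What the position contributed to each value was not tested.

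Of the 348 probes 2-fold lower at 24 h that were bright on all 4 arrays of the slide, 24 h was the lowest in 292 and CTR the highest in 278. Their median levels, from CTR to 24 h in time order, were 2.86, 2.52, 2.16 and 1.55. The 52 such probes that were 2-fold higher had medians of 1.16, 1.91, 1.97 and 2.34. CTR and 24 h chose these probes, and such a choice by itself places the other arrays between both ends. Of genes with 2 or more probes on both arrays, all probes changed to 1 side in 59.1% of 1811 genes. The 349 lower probes on both arrays had a median GC content of 40.0%, the 57 higher ones 45.0% and all 9125 probes 43.3%.

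Some probes were detected on 1 array only. Of 143 detected at 24 h alone outside dark areas, 45 were at least 2-fold higher by their bound, led by CRYAB, KLK9 (at least 4.21-fold), MMP28 (3.12-fold), IGF2 (3.12-fold) and DEFB103B (2.93-fold). KLK9 was at the lowest value of the array in CTR and at 8 h, MMP28 lay in the column next to the dark rectangle, and the other passing probes of IGF2 were not higher. Of 1929 detected in CTR alone, 93 were at least 2-fold lower by their bound. The first 5 of these, GLTP, ALYREF, LLPH, BNIP2 and TUBB2B, were 6.13- to 4.20-fold lower or more, but all lay in 1 corner of the array where the median change of their neighbours was -1.12 to -0.60. For TUBB2B the 3 other passing probes changed by -0.52 to -0.37.

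Changes varied with position on the array. On the CTR array 2545 probe positions were darker than on the other arrays, and 33 of these lay outside the rectangle. On the 24 h array 220 positions were dark, all outside it, and these held 27 of the 371 probes 3-fold lower. The median change within 10 spots ran from -0.43 to 0.21 between its 5th and 95th percentiles, with extremes of -1.24 and 0.60. After each change was centred on this local median, the list medians relative to all genes were -0.72 for replication, -0.60 for mitosis, -0.66 for ER chaperones and 0.53 for interferon response genes, against -0.68, -0.71, -0.58 and 0.65 without it.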

How the data were processed

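The authors labelled total RNA with Cy3 and scanned 8 arrays with Agilent Feature Extraction 9.5.3.1. The deposited files hold processed signal intensity and, for 1 alternative, mean and background intensity. The deposited series table holds log2 values, used as an alternative, and their changes from CTR lay within 0.0045 of those from the scanner intensity in 95% of probes. Intensity was put on a log2 scale and the 75th percentile of each array over probes outside the control spots was subtracted. Spots marked as outliers were left out, spots of 1 probe were averaged, and a gene took the median of its probes. Rows 216 to 330 and columns 30 to 59 were left out. Dark areas were positions where probes within 10 spots had a median of -1 or lower against the other arrays. Arrays had between 20.8% and 40.2% of probes well above background, and 26.5% in CTR and 23.3% at 24 h. A bound set the bright level against the higher of the dim level and the lowest detected level of that array. With 1 array a condition no test was possible, and the number of arrays limits the precision.

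The members and gene lists were chosen with earlier results of these data known. Named genes were the 12 largest rises and falls with all passing probes bright on both arrays and changed to 1 side, the 5 largest bounds each way, list members past 2-fold and the first that pass, and genes the study names. Some genes that this rule names are not reported here. Gene names are those of the array's design; of 6139 symbols that passed, 5196 are in the buffalo RefSeq table. Scripts ran in Python 3.11.15 with pandas 2.3.3, and limma 3.58.1 in R 4.3.3 gave the normexp correction with an offset of 50. The procedure was tested on simulated data, with both arrays made from the CTR levels plus noise and known changes. These arrays did not differ in detection limit or by position, so the simulation cannot show how such differences act here.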

Additional observations from a re-analysis of the deposited data

How the results depend on the processing

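No paired analysis was possible because each condition had 1 array. The distances from all genes of the list medians for replication, mitosis, ER chaperones, heat shock, interferon and immediate early genes kept their sign under the 11 alternatives planned and the 3 added after seeing the data, and none moved by more than 0.37. A change of percentile shifts all genes alike and cannot move such a distance. Counts moved far more. Probes 3-fold higher (32) were 3 when measured on both arrays, 5 on both arrays with dark areas left out in place of the rectangle, 3 centred locally, 6 centred within bins of level, 7 with a common floor, 8 with normexp, 76 with outlier spots kept, 202 without a filter and 543 with the rectangle kept in. Probes 3-fold lower (371) were 43, 37, 19, 22, 74 and 84 under the first 6 of these, and 672 with the array median. Probes 2-fold higher (126) were 57 on both arrays, 38 centred locally, 52 with a common floor, 83 with normexp, 43 with the array median, 1089 without a filter and 752 with the rectangle. Probes 2-fold lower (934) were 349 on both arrays, 338 with dark areas in place of the rectangle, 154 centred locally, 192 within bins, 451 with a floor, 390 with normexp, 2436 with the array median and 1649 without a filter. Genes 2-fold higher (92) were 38 on both arrays, 54 with dark areas in place of the rectangle, 28 centred locally, 57 within bins, 35 with a floor, 57 with normexp, 30 with the array median, 378 without a filter and 507 with the rectangle. Genes 2-fold lower (591) were 193, 183, 75, 95, 220 and 208 in the same first 6 settings and 1530 with the array median. Within lists, genes 2-fold lower ran from 3 to 17 for replication (6), 3 to 19 for mitosis (8), 3 to 12 for ER chaperones (6) and 1 to 7 for heat shock genes (2), each highest with the array median, and genes 2-fold higher from 0 to 3 for interferon (3) and 0 to 4 for immediate early genes (2). Settings that use only probes on both arrays test fewer probes. The cause of the other shifts was not tested. With 1 array a condition, neither culture nor array error can be measured, and probes near the detection limit carry no more than a bound.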
